A study of Mus musculus with 13 samples.

Results

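The genes described here are 10 components of TGF-beta and BMP signalling that act in blood vessels: the ligands Bmp4 and Tgfb1, the receptors Eng, Acvrl1 and Bmpr2, the inhibitory Smads Smad6 and Smad7, and the target genes Id1, Id2 and Id3. They were taken by gene symbol, and 12 array probes report them (Id1 and Id2 have 2 probes each) out of 41174 probes that are not controls. All 10 genes were among the 32046 genes tested, and each member probe was well above background in both colours and below saturation on all 13 arrays. The arrays measured mouse retina RNA in 3 groups, which the labels call tip (6 samples), stalk (4 samples) and nonvascular retina (3 samples). Each array carried one sample in red against Universal Mouse Reference RNA, a pool used only as a common comparator, in green, so every level below is a log2 ratio of sample over reference. The labels give no strain, genotype, age or treatment for any group, do not say how tip and stalk material was told apart or collected, and do not tie samples to animals. The p-values therefore measure only the spread between these samples, which may be technical.

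In this pathway, ligands of the TGF-beta and BMP families bring together type I and type II receptor kinases, which phosphorylate receptor Smads that enter the nucleus with Smad4. In endothelial cells a BMP branch runs through the type I receptor ALK1 (gene Acvrl1), the type II receptor BMPR2 and the co-receptor endoglin (gene Eng), and the Id genes are its standard early targets. Smad6 and Smad7 are induced by the same signals and block them, and loss of endoglin or ALK1 causes arteriovenous malformations.

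Because Id and other BMP-responsive genes are read by Smads at short DNA motifs, the promoters of 3 members are shown: Eng, the receptor gene with the widest gap between vessel and nonvascular arrays, and Id2 and Id3. RefSeq promoter windows (build GRCm38.p6) were matched for 7 of the 10 members. No window was matched for Id1, Acvrl1 and Smad7, so their promoters were not searched. Each sequence is the 250 bases before the annotated start, written 5′ to 3′ on the gene's own strand. Capitals mark the Smad-binding element CAGAC or its reverse complement GTCTG, and the GC-rich motif GGCGCC that receptor Smads of the BMP branch can bind, both searched on either strand and sharing no letters with each other here.
Eng (chr2:32646345-32646594, plus strand): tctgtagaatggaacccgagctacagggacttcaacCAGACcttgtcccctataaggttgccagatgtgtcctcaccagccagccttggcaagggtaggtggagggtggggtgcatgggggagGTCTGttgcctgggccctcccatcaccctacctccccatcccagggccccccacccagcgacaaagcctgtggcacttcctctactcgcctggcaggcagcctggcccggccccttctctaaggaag
Id3 (chr4:136143572-136143821, plus strand): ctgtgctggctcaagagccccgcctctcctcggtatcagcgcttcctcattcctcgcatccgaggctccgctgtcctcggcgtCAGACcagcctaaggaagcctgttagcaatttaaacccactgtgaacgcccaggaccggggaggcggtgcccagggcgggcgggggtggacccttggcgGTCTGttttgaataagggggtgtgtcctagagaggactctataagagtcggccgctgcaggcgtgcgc
Id2 (chr12:25096093-25096342, minus strand): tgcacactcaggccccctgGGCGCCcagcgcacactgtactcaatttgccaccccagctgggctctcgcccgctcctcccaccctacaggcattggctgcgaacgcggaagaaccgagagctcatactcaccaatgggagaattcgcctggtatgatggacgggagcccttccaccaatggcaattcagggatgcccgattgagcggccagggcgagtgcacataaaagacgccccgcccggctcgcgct
Eng holds the first motif at positions -214 and -127 from its start and Id3 at -167 and -68, while Id2 holds the second at -231. Bmpr2 also has GGCGCC, at -105. The first motif lies in 42.2% of 32851 windows of this length and the second in 9.6%, so 2 of 7 members with each is a description of the letters and nothing more. The arrays do not measure binding at these sites.

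Background-corrected red signal had a median of 98.1 to 292 per array, with 85% to 95.4% of spots clear of background in that channel. This brightness was 98.1 to 141 on stalk, 105 to 292 on tip and 166 to 282 on nonvascular arrays. Only tip replicates 5 and 6 (114 and 105) were as dim as stalk. A fit with array brightness therefore cannot fully tell group from brightness. The labels' groups were checked against cell type markers. The median log2 ratio of 12 endothelial markers was 3.01 to 3.32 on tip arrays, 3.53 to 3.65 on stalk arrays and 0.19 to 0.33 on nonvascular arrays, although the probes of Pecam1 and Tek, which are defining endothelial genes, were near the reference level in all 3 groups. Ganglion cell markers ran the other way, at 0.03 to 0.41 on tip, 0.03 to 0.09 on stalk and 2.45 to 2.82 on nonvascular arrays. The median of 12 pericyte and smooth muscle markers was 2.04 to 2.56 on stalk, 0.91 to 1.55 on tip and -0.18 to 0.09 on nonvascular arrays, and 8 of the 12 were lower in tip than in stalk while none was higher. Mueller glia markers were at 3.39 to 3.81 on tip and 3.23 to 3.48 on stalk arrays. On nonvascular replicates 1, 2 and 3 they were at 2.21, 1.61 and 3.52, and astrocyte markers were at -0.09, -0.04 and 0.86, so nonvascular replicate 3 stood apart from the other two. It differed from replicates 1 and 2 by more than 1 log2 unit at 1.29% and 1.4% of genes, against 0.272% between those 2 arrays. Of the astrocyte markers, Gfap, Pax2 and Aqp4 were near the reference level in all 3 groups, with means of -0.18 to 0.34. Only Pdgfra, Aldh1l1 and S100b varied widely over the nonvascular arrays (SD 1.69, 0.87 and 1.39). In such mixed samples fewer cells of a type and less RNA per cell cannot be told apart. Tip replicate 5 was scanned alone on a later day. The other arrays were scanned in the order stalk, tip, nonvascular retina, so for them groups and the order of scanning cannot be told apart.

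**Figure D1:**
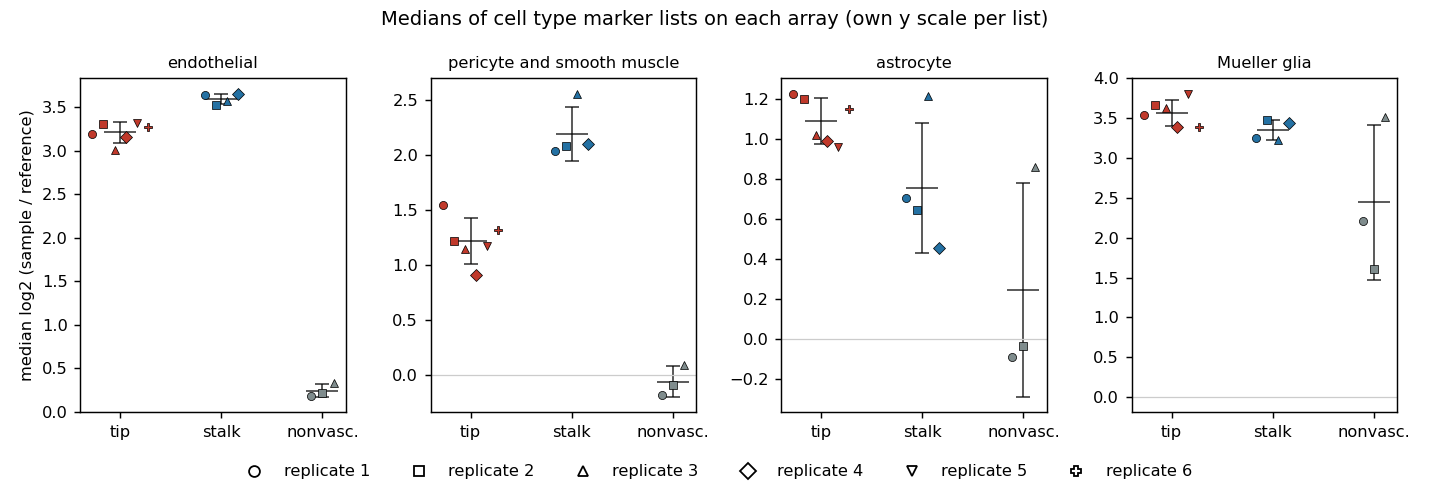
Median log2 ratio (sample over reference) of the endothelial, pericyte and smooth muscle, astrocyte and Mueller glia marker lists on each array, with 1 symbol per replicate number and bars for the mean and SD of a group. Endothelial markers separate vessel from nonvascular arrays, pericyte and smooth muscle markers are highest on the 4 stalk arrays, and nonvascular replicate 3 lies above the other nonvascular arrays in both glial lists.

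Most of the signalling genes were higher in both kinds of vessel sample than in nonvascular retina. Eng, Smad6, Smad7, Id1, Id3 and Tgfb1 rose in both, Id2 passed the test in tip and Bmpr2 in stalk, and no member was lower. In tip against nonvascular retina 7 of 10 members were called higher (adjusted p under 0.05 in limma with Benjamini-Hochberg adjustment), where 11.1% of all genes were and 16.8% were lower. In stalk against nonvascular retina 7 of 10 were called higher, where 11.3% of all genes were and 18.6% were lower. The median difference over the 10 members was 1.10 (tip) and 0.96 (stalk), against -0.01 and 0.00 over all genes. These comparisons share the 3 nonvascular arrays. The members and the other gene lists were chosen with earlier results of these data known. Their counts beside the shares of all genes are therefore only a description. Without nonvascular replicate 3 the counts were 7 and 8, with 10.3% and 10.5% of all genes called higher. Marker lists also had higher medians in tip and stalk than in nonvascular retina. They were 2.84 and 2.58 for endothelial, 1.37 and 2.34 for pericyte and smooth muscle, 1.46 and 1.44 for Mueller glia and 0.80 and 0.51 for astrocyte markers. The part of these cell types in the member values was not tested.

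Between tip and stalk none of the 10 members passed the test in the fit of all 3 groups, where 2.79% of all genes did (1.47% higher and 1.32% lower). At an unadjusted p under 0.05 there were 5 (18% of all genes), namely Eng, Bmpr2, Id1, Id2 and Tgfb1. The tip and stalk arrays did not overlap for 2 members, Id1 (lower in tip) and Id2 (higher in tip), where 5.48% of all genes did not overlap in either direction. Both of these genes were called when nonvascular replicate 3 was left out, with 3.27% of all genes, and when the fit held only tip and stalk arrays, with 2.71%. In the other 22 of 24 alternative analyses neither was called. With array brightness in the model the limma adjusted p was 0.69 for Id1 and 0.574 for Id2.

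**Figure D2:**
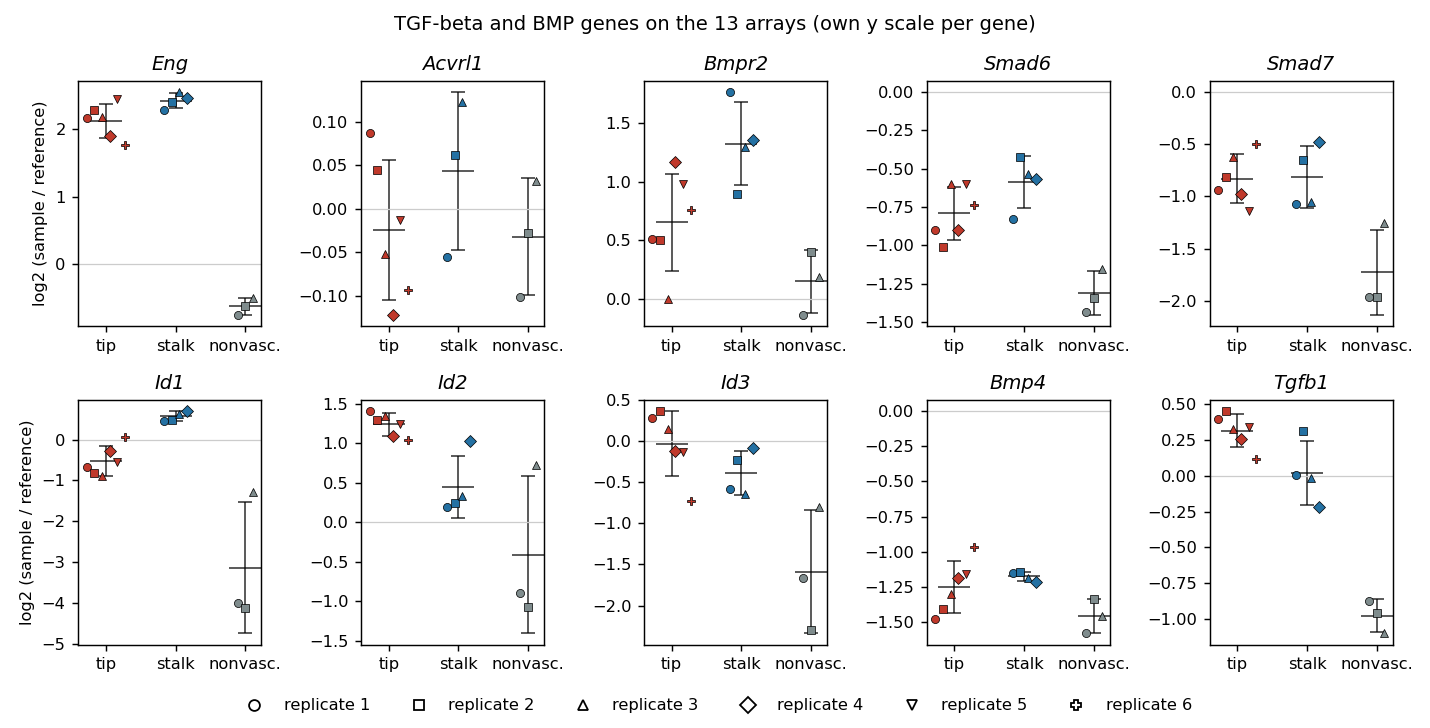
Log2 ratio of sample over reference for the 10 genes on every array, by group, with 1 symbol per replicate number and bars for the mean and SD, each panel on its own scale. Eng and Tgfb1 separate vessel from nonvascular arrays, the Id1 and Id2 values of tip and stalk arrays do not overlap, though neither difference passed the test in the fit of all groups, and nonvascular replicate 3 lies apart from the other nonvascular arrays for the Id genes.

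**Figure D3:**
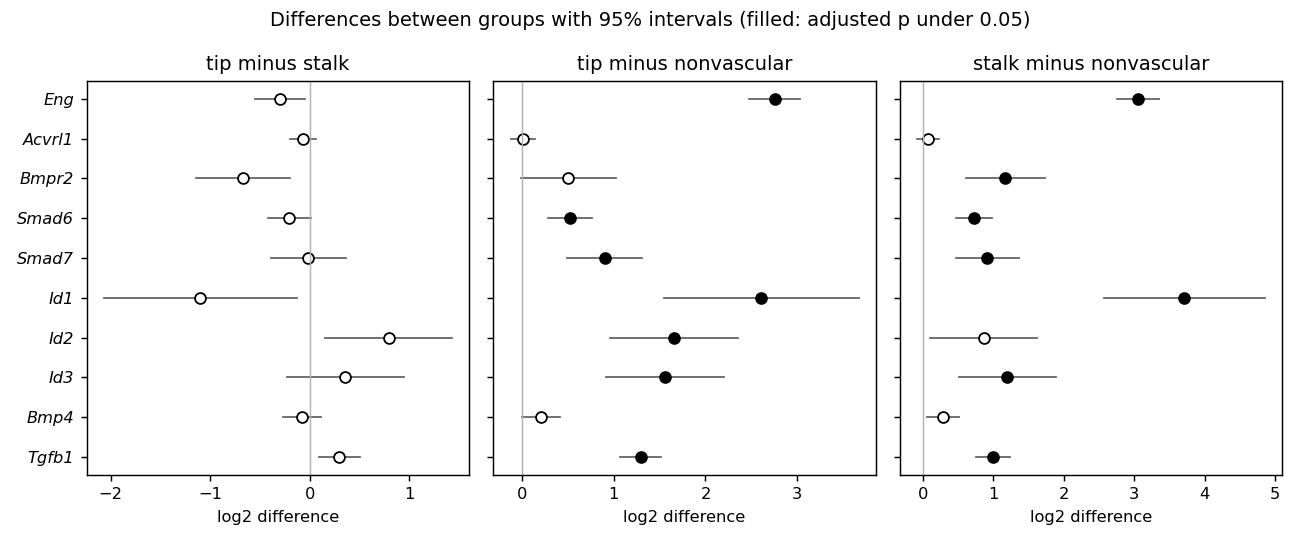
Differences between groups for the 10 genes on the log2 scale, with 95% confidence intervals from limma and filled points for an adjusted p under 0.05. No point is filled for tip minus stalk, and 7 are filled in each comparison with nonvascular retina.

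Among the ligands, Tgfb1 encodes TGF-beta 1, which is secreted in a latent form and drives both endothelial quiescence and mural cell differentiation. Its log2 ratios were 0.40, 0.46, 0.32, 0.26, 0.34 and 0.12 on tip replicates 1 to 6, 0.00, 0.32, -0.02 and -0.22 on stalk replicates 1 to 4, and -0.87, -0.96 and -1.10 on nonvascular replicates 1 to 3. Every vessel array lay above every nonvascular array, and tip and stalk overlapped through stalk replicate 2. Tgfb1 was 2.45-fold higher in tip than in nonvascular retina (log2 difference 1.29 ± 0.10 SE, adjusted p = 1.04e-06) and 2-fold higher in stalk (1.00 ± 0.11, adjusted p = 1.79e-05). With the scanner software's own log ratios these differences were 2.24 and 1.91. Tip was 0.30 ± 0.10 above stalk, which did not pass the test (limma adjusted p = 0.125). This difference was called without stalk replicate 2 (0.39, adjusted p = 0.0326), and it was 0.19 with array brightness in the model (0.631) and 0.14 with the red channel alone (0.741).

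Bmp4 encodes a secreted BMP that patterns the dorsal retina and also acts on vessels. Its log2 ratios were -1.47, -1.41, -1.30, -1.18, -1.16 and -0.97 on tip, -1.15, -1.14, -1.18 and -1.21 on stalk and -1.58, -1.34 and -1.45 on nonvascular arrays. The stalk arrays lay in a narrow band just above all nonvascular arrays, and tip arrays spanned both. Stalk exceeded nonvascular retina by 0.28 ± 0.10 (limma adjusted p = 0.057), and tip by 0.21 ± 0.10 (adjusted p = 0.136), neither of which passed. The stalk difference was called with only the 2 groups fitted (adjusted p = 0.0174), without tip replicate 1 (0.036) and without tip replicate 6 (0.0215). It was 0.08 with array brightness in the model (0.655) and 0.43 with the scanner software's log ratios (0.0565). Tip minus nonvascular was 0.06 with median centring (0.695) and with the red channel alone (0.794). The interval for tip minus stalk ran from -0.26 to 0.12.

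Eng, the co-receptor that presents BMP ligands to ALK1 on endothelium, separated vessel from nonvascular arrays by a wide margin. Its log2 ratios were 2.17, 2.29, 2.18, 1.90, 2.44 and 1.77 on tip, 2.28, 2.41, 2.55 and 2.46 on stalk and -0.76, -0.62 and -0.51 on nonvascular arrays. The vessel arrays stood more than 2 log2 units above all nonvascular arrays, and tip and stalk overlapped. Eng was 6.76-fold higher in tip (2.76 ± 0.13, adjusted p = 1.41e-08) and 8.31-fold higher in stalk (3.05 ± 0.14, adjusted p = 1.02e-08) than in nonvascular retina. These log2 differences ran from 2.63 to 3.67 in tip and from 2.91 to 4.10 in stalk over the 24 alternatives. The highest values, 3.67 and 4.10, came from the scanner software's log ratios, so the size of the Eng difference depends on the processing. Tip was below stalk by 0.30 ± 0.12, which did not pass (limma adjusted p = 0.203, interval -0.55 to -0.04). The endothelial marker list had a median tip minus stalk difference of -0.29, with 2 of 12 markers called lower and 1 called higher. The part of this list in the Eng value was not tested.

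Bmpr2, the type II receptor of the BMP branch, varied more from array to array. Its log2 ratios were 0.51, 0.51, 0.00, 1.17, 0.98 and 0.76 on tip, 1.76, 0.89, 1.29 and 1.35 on stalk and -0.13, 0.40 and 0.19 on nonvascular arrays. All stalk arrays exceeded all nonvascular arrays, whereas tip arrays overlapped with both groups. Bmpr2 was 2.25-fold higher in stalk than in nonvascular retina (1.17 ± 0.26, limma adjusted p = 0.0034). That call was lost with array brightness in the model (0.80, adjusted p = 0.0745), and the scanner software's log ratios gave 1.87. Tip minus nonvascular retina was 0.50 ± 0.24 (adjusted p = 0.146) and was called without tip replicate 3 (0.63, adjusted p = 0.0389), and it was 0.84 with the scanner software's log ratios (0.108). Tip was below stalk by 0.67 ± 0.22, which did not pass (adjusted p = 0.127, interval -1.14 to -0.20). It was -0.39 with array brightness in the model (0.664), -1.05 with the red channel alone (0.0898) and -1.03 with the scanner software's log ratios (0.114).

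Acvrl1, which encodes the endothelial type I receptor ALK1, gave log2 ratios near 0 everywhere. They were 0.09, 0.05, -0.05, -0.12, -0.01 and -0.09 on tip arrays, -0.06, 0.06 and 0.12 on stalk replicates 1 to 3, and -0.10, -0.03 and 0.03 on nonvascular arrays. The spot on stalk replicate 4 was marked as an outlier by the scanner software and dropped from the fit, leaving 3 stalk values. The probe was dim in both colours, with a median of 49.9 in red and 51.5 in green over background, about the size of the offset of 50 added before the log, which pulls ratios towards 0. No comparison passed: tip minus stalk was -0.07 ± 0.06 (limma adjusted p = 0.614), tip minus nonvascular 0.01 ± 0.06 (0.951) and stalk minus nonvascular 0.08 ± 0.07 (0.492). With median centring in place of loess the latter values were 0.29 (adjusted p = 0.0445) and 0.41 (0.0161), both called. Tip minus nonvascular Acvrl1 also turned negative when nonvascular replicate 1, tip replicate 1 or tip replicate 2 was left out.

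Both inhibitory Smads were higher in tip and in stalk than in nonvascular retina. Smad6, which mainly restrains BMP receptors, had log2 ratios of -0.90, -1.01, -0.60, -0.90, -0.60 and -0.73 on tip, -0.83, -0.42, -0.53 and -0.56 on stalk and -1.43, -1.35 and -1.15 on nonvascular arrays. Every vessel array lay above every nonvascular array. Smad6 was 1.43-fold higher in tip (0.52 ± 0.11, adjusted p = 0.00293) and 1.65-fold higher in stalk (0.73 ± 0.12, adjusted p = 4.13e-04). With the scanner software's log ratios these differences were 1.06 and 1.50. Tip minus stalk was -0.20 ± 0.10 (limma adjusted p = 0.312, interval -0.42 to 0.01). It was -0.53 with the red channel alone (0.0587), -0.44 with the scanner software's log ratios (0.2) and -0.36 with median centring (0.291).

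Smad7, which restrains both TGF-beta and BMP receptors, had log2 ratios of -0.93, -0.81, -0.62, -0.97, -1.14 and -0.50 on tip, -1.07, -0.65, -1.05 and -0.48 on stalk and -1.96, -1.97 and -1.26 on nonvascular arrays. The vessel arrays again lay above all nonvascular arrays, with nonvascular replicate 3 closest to them. Smad7 was 1.86-fold higher in tip (0.90 ± 0.19, adjusted p = 0.00293) and 1.88-fold higher in stalk (0.91 ± 0.21, adjusted p = 0.00409). Without nonvascular replicate 3 the differences were 1.13 and 1.15. Tip minus stalk was -0.02 ± 0.17 (limma adjusted p = 0.975), with an interval of -0.39 to 0.36, and it was -0.22 with the red channel alone (0.612).

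The Id genes encode helix-loop-helix proteins without a DNA-binding domain that sequester other transcription factors and hold back differentiation. All are early targets of BMP signalling. Against nonvascular retina Id1 and Id3 rose in both vessel groups and Id2 rose in tip. Tip minus stalk was -1.10 for Id1, 0.79 for Id2 and 0.36 for Id3, and none of the 3 passed the test in the fit of all groups (limma adjusted p = 0.218, 0.176 and 0.532). A difference between the Id genes in their response was not tested. Mueller glia markers were higher at the median in both vessel groups, and on nonvascular replicate 3 than on the other nonvascular arrays. The part of glial cells in the Id values was not tested.

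Id1 log2 ratios were -0.67, -0.83, -0.90, -0.29, -0.54 and 0.07 on tip, 0.47, 0.48, 0.63 and 0.71 on stalk and -4.02, -4.12 and -1.28 on nonvascular arrays. The 4 stalk arrays lay above all 6 tip arrays, the tip arrays lay above all nonvascular arrays, and tip replicate 6 was the tip array nearest to stalk. Nonvascular replicate 3 was more than 2 log2 units above the other nonvascular arrays. Id1 was 6.11-fold higher in tip than in nonvascular retina (2.61 ± 0.49, limma adjusted p = 0.00118) and 13.1-fold higher in stalk (3.71 ± 0.53, adjusted p = 1.26e-04). Without nonvascular replicate 3 these differences were 3.54 (adjusted p = 1.63e-07) and 4.64 (3.18e-08). Tip was 2.14-fold lower than stalk (-1.10 ± 0.45, interval -2.07 to -0.13). That difference did not pass in the fit of all groups (adjusted p = 0.218), in which the spread of the nonvascular arrays enters the error, and it passed without nonvascular replicate 3 (0.0048) and with only tip and stalk fitted (0.00971). It was -0.87 with array brightness in the model (limma adjusted p = 0.69) and -1.24 with median centring (0.293), neither of which passed.

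The second Id1 probe gave -0.81, -0.94, -1.04, -0.34, -0.63 and -0.05 on tip, 0.34, 0.41, 0.50 and 0.62 on stalk and -3.92, -3.94 and -1.33 on nonvascular arrays. It repeated the order of the first probe on the same RNA, with a tip minus stalk difference of -1.10. The pericyte and smooth muscle marker list had a median tip minus stalk difference of -0.75, and the endothelial list one of -0.29. The endothelial list was mixed, with 2 of 12 markers called lower in tip and 1 called higher. The part of these lists in the Id1 difference was not tested.

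Id2 log2 ratios were 1.42, 1.30, 1.35, 1.09, 1.25 and 1.05 on tip, 0.19, 0.24, 0.33 and 1.03 on stalk and -0.90, -1.07 and 0.73 on nonvascular arrays. All tip arrays lay above all stalk arrays, though tip replicate 6 and stalk replicate 4 nearly met, and nonvascular replicate 3 lay within the stalk range. Id2 was 1.73-fold higher in tip than in stalk (0.79 ± 0.29, interval 0.15 to 1.43). That did not pass in the fit of all groups (limma adjusted p = 0.176) and passed without nonvascular replicate 3 (0.0163) and with only tip and stalk fitted (0.0253). Array brightness in the model gave 0.73 (limma adjusted p = 0.574) and median centring 0.62 (0.499), neither of which passed. Against nonvascular retina Id2 was 3.14-fold higher in tip (1.65 ± 0.32, adjusted p = 0.00157). In stalk it was 0.86 ± 0.35 above nonvascular retina and did not pass (adjusted p = 0.0839, and 0.53 without nonvascular replicate 2). Without nonvascular replicate 3 these differences were 2.22 (adjusted p = 2.89e-06) and 1.43 (1.56e-04), the latter now called.

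The second Id2 probe gave a smaller separation. Its log2 ratios were -0.19, 0.06, -0.42, -0.09, -0.70 and -0.81 on tip, -1.03, -0.77, -0.84 and -0.53 on stalk and -1.55, -1.54 and -0.26 on nonvascular arrays. Tip replicates 5 and 6 fell within the stalk range on this probe. It gave 0.43 for tip minus stalk (limma adjusted p = 0.404), 0.76 for tip minus nonvascular (0.0574) and 0.33 for stalk minus nonvascular (0.472), all below the values of the brighter probe and none of them called.

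Id3 log2 ratios were 0.28, 0.37, 0.15, -0.12, -0.13 and -0.73 on tip, -0.58, -0.23, -0.65 and -0.09 on stalk and -1.66, -2.30 and -0.80 on nonvascular arrays. Tip replicates 1 to 3 lay above every stalk array, whereas tip replicate 6 lay below them all and close to nonvascular replicate 3. Id3 was 2.94-fold higher in tip (1.56 ± 0.30, adjusted p = 0.00132) and 2.3-fold higher in stalk (1.20 ± 0.32, adjusted p = 0.0117) than in nonvascular retina. The stalk call was lost with median centring (1.07, limma adjusted p = 0.0591) and without nonvascular replicate 2 (0.84, 0.0666), and without nonvascular replicate 3 the differences were 1.95 and 1.59. Tip minus stalk was 0.36 ± 0.27 (adjusted p = 0.532, interval -0.23 to 0.94), and it was 0.01 with array brightness in the model (0.999).

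The Id genes were also set against each other on the same array, as a description with no test. Id1 lay lower and Id2 higher on all tip arrays than on all stalk arrays, so a separation of Id1 minus Id2 between those groups follows from these values and adds no support of its own. The zero of such a value carries no meaning, because each probe has its own reference level, so only shifts between groups were read. Id1 minus Id2 ran from -2.25 to -0.98 on tip arrays (mean -1.77 ± 0.50 SD, n = 6), from -0.32 to 0.30 on stalk arrays (0.12 ± 0.30, n = 4) and from -3.12 to -2.01 on nonvascular arrays. The brighter Id2 probe was used, and the other Id2 probe overlapped between tip and stalk. Id1 minus Id3 ran from -1.19 to 0.80 on tip and from 0.71 to 1.28 on stalk, so that tip replicate 6 alone entered the stalk range. Id2 minus Id3 overlapped in all groups, at 0.94 to 1.78 on tip, 0.47 to 1.12 on stalk and 0.76 to 1.53 on nonvascular arrays. Nonvascular replicate 3, which stood apart in the levels of all 3 Id genes, lay highest of the nonvascular arrays in each pair.

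**Figure D4:**
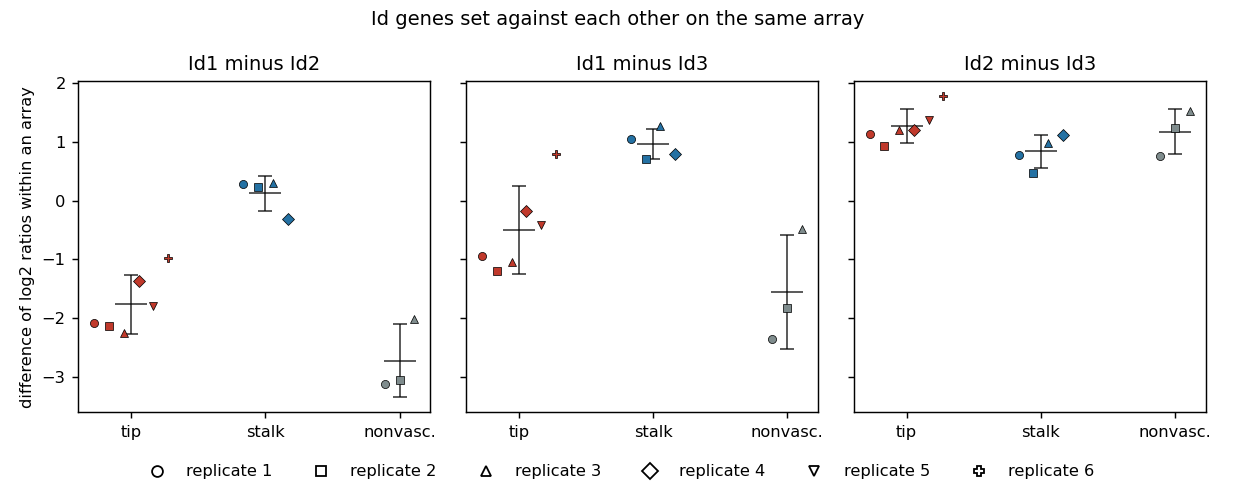
Differences between the log2 ratios of pairs of Id genes within each array, by group, with bars for the mean and SD. Id1 minus Id2 is -2.25 to -0.98 on tip arrays and -0.32 to 0.30 on stalk arrays, while Id2 minus Id3 overlaps between all groups.

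Genes with the most similar profile to each member were sought among 14901 genes with a symbol that were well above background on all 13 arrays. These correlations run over arrays that fall into 3 groups and share their reference, so they describe the group pattern. Eng was followed most closely by Ppm1f (Pearson r = 0.994), Arap3 (0.994) and Sox7 (0.991), the last an endothelial transcription factor. Tgfb1 was followed by Capg (0.978), Ccn1 (0.97) and Unc5b (0.969), a netrin receptor of endothelial cells, and Id2 by Igfbp2 (0.977), Sall2 (0.969) and Vit (0.96). The closest to Id1 were Numa1 (0.983), Ptn (0.977) and Sumf1 (0.976), and to Id3 Prdx4 (0.971), Nek9 (0.969) and Arhgap31 (0.965). For the other members the closest genes were Ppt2 (0.954) for Smad6, Slc39a1 (0.955) for Smad7, Mcoln3 (0.928) for Bmpr2, Rps21 (0.913) for Bmp4 and, over 12 arrays, Dnmt3a (0.937) for Acvrl1. No gene was among the closest 3 of more than 1 member.

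Beyond the 10 members, 105 further genes of the pathway were listed by role, and 98 were tested. Gdf11, Inhbb, Nodal, Acvr1c, Lrrc32, Itgb8 and Zfyve9 matched no probe. In tip against nonvascular retina 38 were higher and 13 lower (28% of all genes were called in either direction), and in stalk 32 were higher and 13 lower (29.8% of all genes). Between tip and stalk 2 were higher and 5 lower (2.79% of all genes were called, 1.47% higher and 1.32% lower). Without nonvascular replicate 3 the counts were 34 and 12 in tip, 33 and 13 in stalk, and 3 and 5 between tip and stalk, with 26.2%, 28.2% and 3.27% of all genes called. The median tip minus stalk difference over the 98 genes was 0.02, against 0.00 over all genes.

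Of 7 genes called between tip and stalk, Tgfbi, Nbl1 and Cdkn2b were called in all 24 alternative analyses. Tgfbi, a secreted matrix protein named for its induction by TGF-beta, stood 2.23-fold below its stalk level in tip (-1.16 ± 0.10, limma adjusted p = 8.04e-05), at 1.38 ± 0.19 (SD, n = 6) on tip, 2.54 ± 0.16 (n = 4) on stalk and -1.31 ± 0.09 (n = 3) on nonvascular arrays. Nbl1, a secreted BMP antagonist, was 1.95-fold lower in tip (-0.96 ± 0.09, adjusted p = 8.21e-05), at -0.22 ± 0.18 on tip, 0.74 ± 0.05 on stalk and -0.92 ± 0.11 on nonvascular arrays. Cdkn2b, a cyclin-dependent kinase inhibitor induced by TGF-beta, ran the other way and was 2.17-fold higher in tip (1.12 ± 0.15, adjusted p = 0.00156), at -1.11 ± 0.21, -2.22 ± 0.31 and -3.03 ± 0.22. For each of these genes tip and stalk arrays did not overlap.

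The other 4 were lost under several alternatives. Ltbp4, which holds latent TGF-beta in the matrix, was -0.30 ± 0.06 in tip minus stalk (limma adjusted p = 0.0207, range 0.0153 to 0.271), and its call was lost in 7 of 24 alternatives, among them those without stalk replicate 1 (0.066) or 2 (0.0555). Ldlrad4, an inhibitor of receptor Smad phosphorylation, was -0.65 ± 0.14 (0.03, range 0.0022 to 0.257) and was lost in 9, among them those without stalk replicate 1 (0.0968) or 3 (0.0896) or without tip replicate 2, 3, 4 or 5 (0.0515 to 0.0682). Acta2, the smooth muscle actin gene, was -0.93 ± 0.20 (0.0323, range 8.87e-04 to 0.262), and the mean of its probes gave -0.30. It was lost in 11, among them those without stalk replicate 1 (0.0968), 2 (0.0642) or 4 (0.0502) or without tip replicate 1, 2, 3 or 5 (0.057 to 0.0684). Inha, the inhibin alpha subunit, was 0.54 ± 0.13 (0.0442, range 0.0146 to 0.296) and was lost in 17, including those without any 1 of nonvascular replicates 1 and 2, stalk replicates 2 to 4 and tip replicates 1, 2, 3 and 5 (0.0572 to 0.128). Acta2 is also one of the 12 pericyte and smooth muscle markers, 8 of which were lower in tip, and the part of that list in the differences of Tgfbi, Nbl1, Ltbp4 and Ldlrad4 was not tested.

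Against nonvascular retina, 2 of 15 further ligands rose and 4 fell in tip, and 1 rose and 3 fell in stalk. In total 6 and 4 of the 15 were called, against 28% and 29.8% of all genes. Tgfb2 was 1.63 ± 0.25 higher in tip and 1.89 ± 0.27 higher in stalk, while Gdf6, a BMP family ligand, was -1.62 ± 0.18 and -1.46 ± 0.19 and Inha -1.31 ± 0.14 and -1.84 ± 0.15. The Gdf6 probe was well above background in red on all 3 nonvascular arrays but on 5 of 6 tip and 2 of 4 stalk arrays, so its vessel levels are close to the limit of measurement. The scanner software's log ratios gave -3.63 and -3.06 for Gdf6, and the mean over probes gave -0.65 and -0.91 for Inha. Of 12 further receptors and co-receptors 2 were higher and 2 lower in tip, and 1 higher and 3 lower in stalk, so 4 of 12 were called in each comparison, near the share of all genes. Tgfbr2, the type II receptor for TGF-beta, was higher by 2.24 ± 0.14 and 2.07 ± 0.15 in tip and stalk, or by 1.14 and 1.03 averaged over its probes. Its type I partner Tgfbr1 was lower in stalk (-1.02 ± 0.24), a call lost with array brightness in the model (-0.66, limma adjusted p = 0.122), and the mean over its probes was -0.46. The BMP co-receptor Rgma was lower in tip (-1.02 ± 0.23). Means on tip, stalk and nonvascular arrays were -0.77, -0.58 and 0.26 for Rgma and 0.65, 0.08 and 1.10 for Tgfbr1. Acvr2a, an activin and BMP type II receptor, was lower by 0.40 ± 0.11 in tip and 0.47 ± 0.12 in stalk, where 3 of 4 arrays were well above background, and the scanner software's log ratios gave -1.25 (adjusted p = 0.0521, not called) and -1.56. The tip call was also lost without nonvascular replicate 1 (0.0946) or 2 (0.0757), and the stalk call without nonvascular replicate 1 (0.0542) and with brightness in the model (0.0802).

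Genes that keep ligands latent or release them were mostly higher, with 9 of 12 up in tip and 7 of 12 in stalk and none down. Of all genes 11.1% were higher and 16.8% lower in tip, and 11.3% and 18.6% in stalk. Nrros, which anchors latent TGF-beta on microglia and macrophages, was higher by 2.98 ± 0.15 in tip and 2.59 ± 0.16 in stalk, while of 6 microglia and macrophage markers 4 were lower in tip, 3 were lower in stalk and none was higher. The latent TGF-beta binding protein Ltbp3 was higher by 2.36 ± 0.31 in tip (1.36 averaged over its probes) and Ltbp4 by 0.62 ± 0.07 in stalk. Means on tip, stalk and nonvascular arrays were 0.40, -0.12 and -1.96 for Ltbp3 and -0.50, -0.20 and -0.82 for Ltbp4. Furin, the protease that cleaves the TGF-beta precursor, was higher by 0.97 ± 0.14 and 1.30 ± 0.15. Of 15 extracellular inhibitors 5 were higher and 2 lower in tip, and 2 higher and 2 lower in stalk. In either direction 28% and 29.8% of all genes were called. Fstl1, a secreted follistatin-like glycoprotein, was higher by 2.20 ± 0.33 and 2.08 ± 0.38, and Nbl1 by 0.70 ± 0.09 and 1.67 ± 0.10. Twsg1, which modulates BMP binding by chordin, was higher in tip (0.58 ± 0.17). Its means were -1.14, -1.46 and -1.72 on tip, stalk and nonvascular arrays. The Twsg1 call was lost with median centring (limma adjusted p = 0.272), with the red channel alone (0.0863) and without nonvascular replicate 1 (0.064) or 2 (0.14).

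Among 9 further Smads and partners 2 were higher and 2 lower in tip, and 3 higher and 2 lower in stalk. Of all genes 28% in tip and 29.8% in stalk were called in either direction. The BMP branch Smads were the higher ones named: Smad5 by 1.70 ± 0.17 in tip and 1.82 ± 0.18 in stalk, and Smad1 by 1.26 ± 0.21 and 1.22 ± 0.23. Foxh1, a DNA-binding partner of activin-type Smads, was -0.29 ± 0.06 and -0.49 ± 0.06, and from the red channel alone it turned to 0.11 in tip and was -0.07 in stalk. Of 13 intracellular inhibitors 4 were higher and 1 lower in each vessel group, beside the same 28% and 29.8% of all genes. Bambi, a decoy receptor, was higher by 1.56 ± 0.16 and 1.95 ± 0.18, Ldlrad4 by 1.00 ± 0.15 and 1.65 ± 0.16, and the Smad corepressor Tgif2 by 1.46 ± 0.22 and 1.92 ± 0.24. Averaging all probes of a gene, in place of the brightest one, gave smaller differences that were still called: 0.81 and 0.82 for Smad5, 0.80 and 0.56 for Smad1, 0.78 and 0.94 for Bambi and 0.53 and 0.87 for Ldlrad4.

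Of 22 other target genes 14 were higher and 2 lower in each vessel group (28% and 29.8% of all genes were called), with medians of 0.73 in tip and 0.76 in stalk. Tgfbi was higher than in nonvascular retina by 2.69 ± 0.11 in tip and 3.85 ± 0.12 in stalk. The matricellular genes Ccn1 (1.77 ± 0.14 in tip) and Ccn2 (2.53 ± 0.25 in stalk) were higher, as was Cdkn2b (1.92 ± 0.16 in tip). The mean of each was also above nonvascular retina in the other vessel group. Means on tip, stalk and nonvascular arrays were -2.24, -2.60 and -4.01 for Ccn1 and -0.97, -0.47 and -3.00 for Ccn2. For Cdkn2b they were -1.11, -2.22 and -3.03. In tip and stalk 10 and 11 of the 12 pericyte and smooth muscle markers were higher than in nonvascular retina. So were 11 and 10 of the 12 endothelial markers. Mueller glia markers were higher in 5 and 4 of 6 (medians 1.46 and 1.44) and astrocyte markers in 3 and 2 of 6. The part of these cell types in the target gene values was not tested. The list holds matrix and smooth muscle genes that other signals also regulate.

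**Figure D5:**
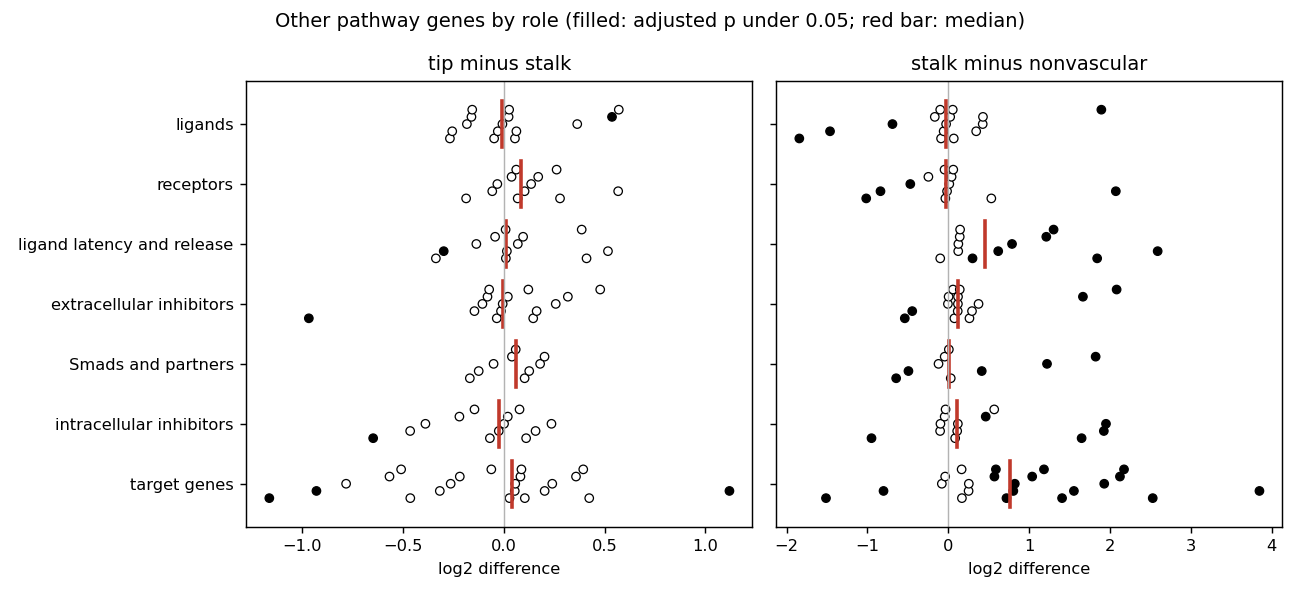
Log2 differences of the 98 other pathway genes by role, for tip minus stalk and for stalk minus nonvascular retina, with filled points for an adjusted p under 0.05 and a red bar at each role's median. Filled points are few between tip and stalk (7 genes), and the target genes and the latency genes have their stalk minus nonvascular medians at 0.76 and 0.46.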

How the data were processed

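Per the labels' protocols, RNA was extracted with the PicoPure kit, checked on a Bioanalyzer and amplified and labelled with an Agilent low input linear kit, sample in Cy5 and reference in Cy3 with no dye swap. Per the file headers, Agilent Feature Extraction 8.5.1.1 gave mean intensities and local backgrounds per spot, which are not normalized. Its log10 ratio of processed red over green was, per the file headers, background-corrected and dye-normalized. The deposited value table holds linear ratios equal to the antilog of that log10 ratio within 0.001 on the log10 scale for 100% of values compared.

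From the deposited mean intensities, log2 ratios were computed with limma 3.58.1 (R 4.3.3, data.table version 1.17.8) by normexp background correction (offset 50) and loess. Control spots were left out, outlier spots were set to missing and repeated spots averaged. Probe names came from the RefSeq table (22072 by own accession, 142 by another, 1093 by description), and 17867 kept the file's name. The brightest probe stood for a gene, which had to be well above background in red on at least 3 of 13 arrays (32046 genes, 16553 with a symbol). Means of the 3 groups were estimated jointly from the 13 arrays in limma, and p-values were adjusted over all genes in each comparison. Errors on differences are SE and on levels SD. The procedure was tested on simulated data in which a gene had the same spread in all 3 groups. It therefore cannot speak for genes with unequal spread, such as Id1 (SD 1.61 on nonvascular and 0.12 on stalk arrays). The number of arrays limits the precision. All 10 members are named. Other pathway genes are named where called between tip and stalk, and otherwise up to 3 per role with the smallest p against nonvascular retina, of which a few are not reported here. The members, pathway and marker lists were chosen with earlier results of these data known.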

Additional observations from a re-analysis of the deposited data

Results flagged for a closer look

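Id2 on stalk replicate 4 had a log2 ratio of 1.03, against 0.19 to 0.33 on the other 3 stalk arrays. The gap was 0.833 of the group's whole range, just past the limit for a single value far from a group of 4. It was the 1 array found among 19 groups of member values searched, and chance alone gives about 1 in 20. On the second Id2 probe stalk replicate 4 was also the highest stalk array, at -0.53 against -1.03 to -0.77. Without it the tip minus stalk difference of Id2 was 0.99 (limma adjusted p = 0.114).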

How the results depend on the processing

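Called members numbered 6 to 8 (stalk against nonvascular retina) and 7 to 8 (tip against nonvascular retina) over the 24 alternatives, and called pathway genes 36 to 49 and 38 to 53, all within 1.5 times. Between tip and stalk the members called went from 0 to 2 with only the 2 groups fitted and ranged from 0 to 2 when single arrays were left out (2 without nonvascular replicate 3, 1 without stalk replicate 2). Pathway genes called went from 7 to 4 with array brightness in the model, with median centring, with only the 2 groups fitted and with the replicate number as a block, and ranged from 4 to 10 when single arrays were left out. Of all genes 893 were called between tip and stalk, against 225 with brightness, 252 with median centring, 445 without stalk replicate 1, 529 without tip replicate 2 and 547 without tip replicate 3. Same-numbered arrays of different groups did not deviate together (correlations -0.144 to 0.0824 over 10 pairs, against -0.177 to 0.184 over 44 pairs with different numbers). No pairing by replicate number was seen. Such correlations cannot exclude that same-numbered samples shared an animal, on which the labels are silent. The block left 0 members called between tip and stalk, and gave 0.56 for Id3 tip minus stalk and 0.29 for Bmpr2 and 0.10 for Bmp4 tip minus nonvascular. Of 720 member values 695 kept direction and side of the threshold and 10 reversed, all of them uncalled: Acvrl1 tip minus stalk was 0.0352 from the red channel alone, Bmp4 tip minus stalk was 0.0776 with brightness, and leaving out single arrays gave a range of -0.0271 to 0.0397 for Acvrl1 tip minus nonvascular and of -0.1026 to 0.0956 for Smad7 tip minus stalk. Of 1172 values of 27 other pathway genes 59 lost their call and 1 reversed, Foxh1 tip minus nonvascular, at 0.11 from the red channel alone. The causes were not tested. A slide or scan-day block was not run, because each array had its own slide and the second scan day held 1 array (tip replicate 5), which the alternatives leave out in turn.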
